A study of Mus musculus with 30 samples.

Results

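The genes expressed in the extensor digitorum longus (EDL) muscle on day 40, during the chronic remission that follows experimental autoimmune encephalomyelitis (EAE), were compared between EAE-induced and unimmunized (Ctrl) mice. The members are all genes with a mean above 3 RPKM (reads per kilobase of exon corrected for library size) in either group, which gave 8691 of the 21073 genes in the expression table. Of these, 8182 exceeded 3 RPKM in both groups, 440 only in unimmunized mice and 69 only in EAE-induced mice.

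RNA-Seq was performed on poly(A) RNA of EDL muscles from wild-type female SJL/J mice, 5 mice per group, killed 14 or 40 days after immunization, with separate mice on each day (30 mice in all). EAE-induced mice had received a peptide of myelin proteolipid protein (PLP) emulsified in complete Freund's adjuvant (CFA), injected under the skin. OVA-immunized mice had received ovalbumin in the same adjuvant, and unimmunized mice had received neither antigen nor adjuvant. A difference between EAE-induced and unimmunized mice therefore includes any effect of the adjuvant, and the levels in OVA-immunized mice are given beside it. The study describes day 40 as a remission in which most EAE-induced mice were free of physical signs. The sources used here give no age for the mice and no disease score for the individual animals.

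EAE is a mouse model of multiple sclerosis in which T cells directed at myelin attack the central nervous system, and in SJL/J mice it relapses and remits. The EDL is a fast muscle of the lower leg that draws mainly on glycolysis and tires sooner than slow muscle. Muscle fibres adjust their fuel genes to supply. Fatty acids act through peroxisome proliferator-activated receptors (PPARs) to raise genes such as Ucp3, Pdk4 and Cpt1a, and FoxO transcription factors raise both fuel genes and the ubiquitin ligases Fbxo32 (atrogin-1) and Trim63 (MuRF1) when muscle wastes. Whether the muscle programme of active EAE persists, fades or turns around in remission is the question that this comparison addresses.

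Fast fibre markers were far above slow fibre markers, with summed levels of 72010 to 100600 RPKM against 1182 to 3251 RPKM per mouse, and with the regulatory light chain gene Mylpf at 9041 ± 525 RPKM (SD) in unimmunized mice. None of the 10 keratinocyte markers and only Ighm of 16 lymphocyte and plasma cell markers passed the minimum. Depth, estimated roughly from the spacing of the lowest values, was 18400000 to 23540000 reads per mouse in the EAE-induced and unimmunized groups and did not separate them (exact two-sided permutation test, p = 0.595, n = 5). The libraries differed more in how expression varied with transcript length. Slopes on exon length were fitted to each mouse's deviation from the mean of the 15 day 40 mice, so they are relative to that mean. In log2 units per unit of log10 length, they were 0.24, 0.05, 0.66, -0.26 and 0.10 in unimmunized mice 1 to 5 and -0.48, 0.05, -0.43, -0.08 and -0.05 in EAE-induced mice 1 to 5, against -0.06 to 0.15 in OVA-immunized mice. Unimmunized mouse 3 and EAE-induced mice 1 and 3 stood apart. The groups overlapped (exact two-sided permutation test, p = 0.111, adjusted p = 0.139 over 5 library measures, n = 5).

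**Figure D1:**
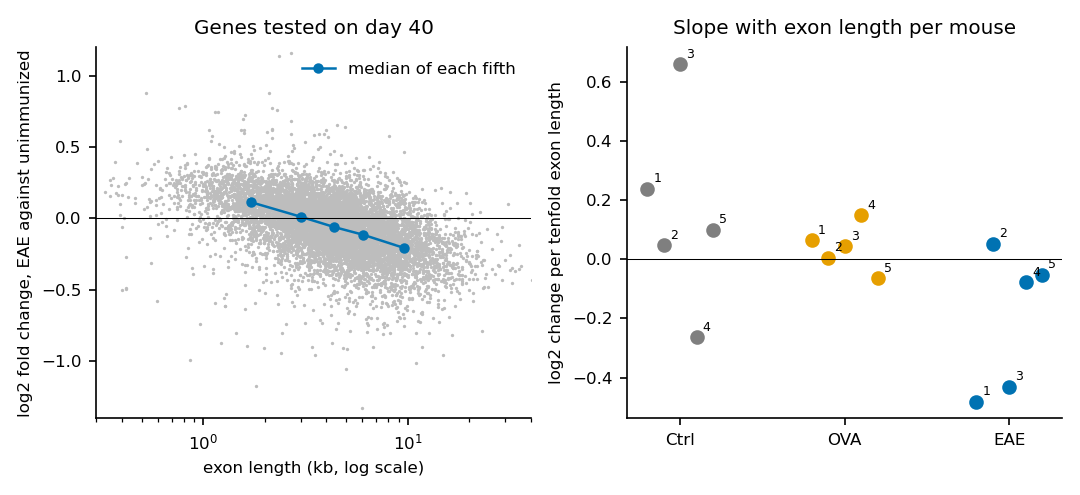
Left, the log2 fold change of each gene (EAE-induced against unimmunized, day 40) against its summed exon length in kb on a log axis, with the medians of 5 equal length classes. The medians fall from 0.11 in the shortest class to -0.21 in the longest. Right, the slope on exon length of each mouse's deviation from the mean of the 15 day 40 mice. Mice are numbered within their group (Ctrl, OVA, EAE), and unimmunized mouse 3 lies highest and EAE-induced mice 1 and 3 lowest.

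The difference between the groups was small in size and in number of genes. A limma model of the 15 day 40 mice, fitted to log2(RPKM + 0.1), found 40 genes (0.460% of the genes tested) with an adjusted p under 0.05 and a change of more than 1.5-fold. Of these, 6 were upregulated in EAE-induced mice (0.0690%) and 34 were downregulated (0.391%). Without the fold threshold there were 229 genes (2.63%), 25 higher (0.288%) and 204 lower (2.35%). The called genes changed by 1.51- to 1.56-fold upward and by up to 1.94-fold downward. The 5 EAE-induced mice did not overlap with the 5 unimmunized mice in 5 of the 6 upregulated and 28 of the 34 downregulated genes, compared with 0.713% of all genes for higher and 4.51% for lower expression. The called genes were chosen for a difference between these same mice, which by itself favours groups that do not overlap. No conclusion is drawn from that comparison. Across all genes tested the log2 fold change had a median of -0.05, its 5th and 95th percentiles were -0.40 and 0.26, and 59.7% of genes were below 0.

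The number of called genes rested on single mice, on the model and on the length trend. With all 30 mice in 1 model there were 0 calls (1134 genes at an unadjusted p below 0.05), with the 10 compared mice alone 1 higher and 5 lower, and with a pseudocount of 1 there were 0 higher and 15 lower. Leaving out EAE-induced mouse 3 left 1 called gene, Cep95, and leaving out unimmunized mouse 3 left 7, all lower, whereas without unimmunized mouse 4 there were 21 higher and 181 lower. After each library was corrected for its trend with exon length, the genes called were Mettl21e upward and Adap2, Lgals4, Cep95, Tfap4, Cpt1a, Cyp4f13, Amt, Avil and Vsig2 downward. Of these, all downward genes but Lgals4 had a mean of at most 3 RPKM in EAE-induced mice, so they entered the test only through the unimmunized group, where they are high, as did 15 of the 34 downregulated genes. All 40 called genes kept their direction after that correction. The split between directions also moved with the scaling, from 6 higher and 34 lower to 6 and 15 with median-of-ratios scaling and 5 and 3 with quantile normalization.

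The 6 upregulated genes were Hes1, Atp5g1, Mt3, Mettl21e, Smim4 and Pla2g12a. Hes1, a transcriptional repressor downstream of Notch receptors, had 10.5, 15.5, 10.7, 16.1 and 12.7 RPKM in unimmunized mice and 18.7, 21.9, 18.7, 23.4 and 16.5 RPKM in EAE-induced mice. Every EAE-induced mouse was above every unimmunized one (log2 fold change 0.61, SE 0.12, adjusted p = 0.0236 by limma), and the 5 OVA-immunized mice lay between 11.2 and 13.9 RPKM, within the unimmunized range.

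Atp5g1 (Entrez Gene 11951, chr11:96072793-96075694 on GRCm38.p6) encodes a form of subunit c, the proton-carrying ring of ATP synthase. It had 3.64, 4.45, 3.28, 4.91 and 4.93 RPKM in unimmunized mice and 7.34, 5.14, 7.23, 5.46 and 8.35 RPKM in EAE-induced mice (log2 fold change 0.64, SE 0.15, adjusted p = 0.0420). The groups did not overlap, although the highest unimmunized and lowest EAE-induced mouse were close. The OVA mean of 5.75 ± 0.90 RPKM lay between the groups. Atp5g1 has near-identical copies elsewhere in the genome, and reads may have been divided among them.

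Mt3, a zinc- and copper-binding metallothionein, rose from 5.99 ± 0.68 to 9.44 ± 2.40 RPKM (log2 fold change 0.62, adjusted p = 0.0236). Its 5 OVA-immunized mice, at 7.76 to 8.44 RPKM, also lay above every unimmunized mouse, whose highest value was 6.94. Mettl21e, a muscle-enriched member of a protein lysine methyltransferase family, had 3.23, 3.36, 3.23, 3.00 and 3.57 RPKM in unimmunized mice and 5.58, 5.15, 4.89, 6.06 and 3.97 RPKM in EAE-induced mice (log2 fold change 0.62, adjusted p = 0.0236). It was the upregulated gene that remained called after exon length correction (log2 fold change 0.67), while Smim4 and Hes1 had adjusted p-values of 0.0406 and 0.0445 with folds below 1.5. Smim4, which encodes a small mitochondrial protein needed for complex III assembly, rose from 8.06 ± 1.02 to 12.3 ± 0.64 RPKM with no overlap (adjusted p = 0.0175). Pla2g12a, a secreted phospholipase A2, had 22.6 ± 5.25 RPKM in unimmunized and 33.7 ± 5.35 RPKM in EAE-induced mice, with the highest unimmunized mouse (30.8) above the lowest EAE-induced mouse (26.2) (log2 fold change 0.59, adjusted p = 0.0394).

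A further 4 genes had the smallest p-values among genes more than 1.5-fold higher that missed the threshold, and they are not called. Ptx3, a secreted pattern-recognition protein of innate immunity, had 5.85 ± 1.42 against 9.50 ± 2.71 RPKM with no overlap (adjusted p = 0.0644). Junb, a subunit of the AP-1 transcription factor, had 18.2 ± 3.89 against 31.6 ± 10.3 RPKM (adjusted p = 0.0544). Bdh1, which oxidizes ketone bodies in mitochondria, had 7.37 ± 1.59 against 11.2 ± 2.90 RPKM (adjusted p = 0.0599), and Frat2, which binds the kinase GSK3, had 4.51 ± 1.31 against 6.82 ± 1.16 RPKM (adjusted p = 0.0590).

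**Figure D2:**
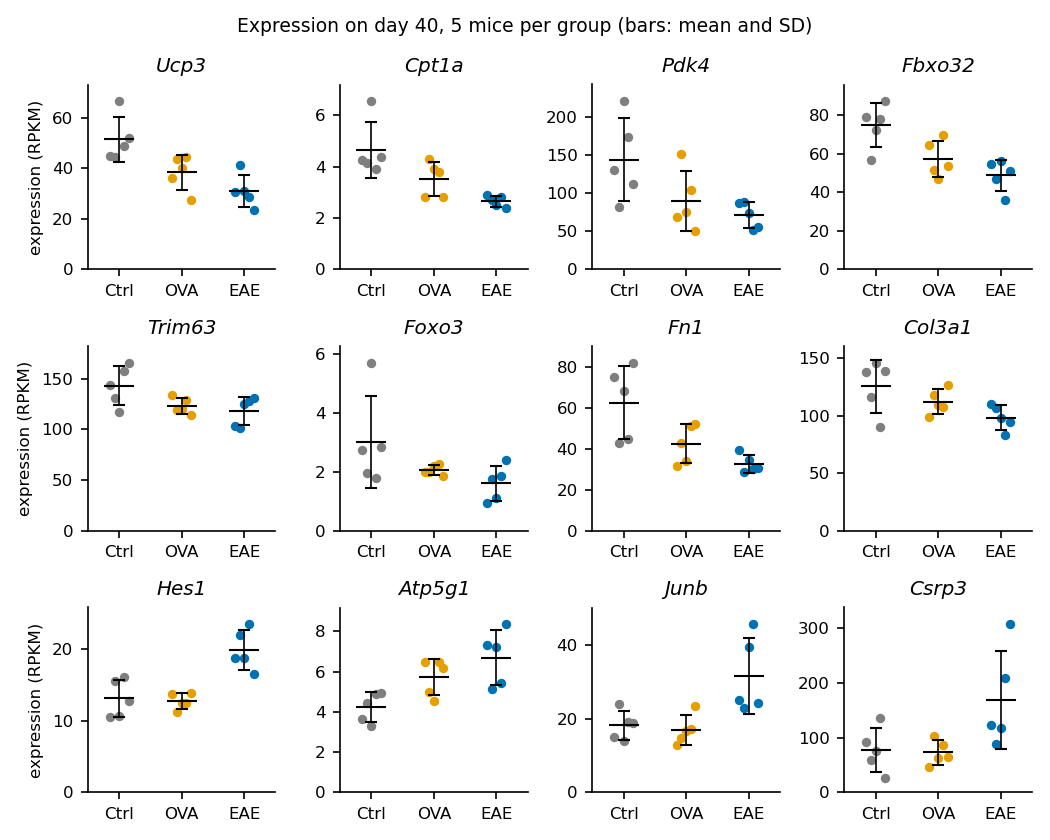
Expression in RPKM of 12 genes on day 40 in unimmunized (Ctrl), OVA-immunized (OVA) and EAE-induced (EAE) mice, 1 point per mouse, with bars for the mean and SD of 5 mice. Ucp3, Cpt1a, Fbxo32 and Fn1 are lower and Hes1 and Atp5g1 higher in EAE-induced than in unimmunized mice with no overlap. Pdk4, Trim63, Foxo3, Junb and Csrp3 overlap between these groups and were not called.

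Ucp3 and Cpt1a, which act in the mitochondrial use of fatty acids, were downregulated. Ucp3 (Entrez Gene 22229, chr7:100472991-100486432), a mitochondrial carrier that rises with fatty acid supply, had 45.0, 44.6, 66.5, 48.9 and 52.0 RPKM in unimmunized mice and 30.6, 41.2, 31.0, 28.8 and 23.5 RPKM in EAE-induced mice. No value of one group reached the other (log2 fold change -0.73, SE 0.15, adjusted p = 0.0236 by limma). The OVA mean was 38.4 ± 6.98 RPKM, between the groups.

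Cpt1a (Entrez Gene 12894, chr19:3322326-3385735) encodes the carnitine palmitoyltransferase through which long-chain fatty acids enter mitochondria, in the isoform that is best known from liver. It had 4.25, 4.13, 6.55, 3.92 and 4.39 RPKM in unimmunized mice and 2.88, 2.72, 2.49, 2.83 and 2.38 RPKM in EAE-induced mice. The EAE-induced mice were tightly grouped and lay below every unimmunized mouse (log2 fold change -0.76, adjusted p = 0.0197, and -0.60 with an adjusted p of 0.0445 after exon length correction). Unimmunized mouse 3, at 6.55 RPKM, stood well above the other unimmunized mice.

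Pdk4, the kinase that shuts pyruvate dehydrogenase and so spares glucose, had a larger but more variable difference. Its values were 131, 82.0, 221, 174 and 113 RPKM in unimmunized mice and 86.8, 89.2, 74.3, 52.4 and 56.1 RPKM in EAE-induced mice (log2 fold change -0.96, SE 0.28, adjusted p = 0.0672). Unimmunized mouse 2 fell within the EAE-induced range, and Pdk4 was not called. The OVA-immunized mice spread from 51.1 to 152 RPKM. Txnip, an inhibitor of glucose uptake that rises with glucose, went the other way, with 192 ± 32.4 against 276 ± 38.1 RPKM (log2 fold change 0.53, adjusted p = 0.0236, below the fold threshold). In OVA-immunized mice Txnip was at 280 ± 23.1 RPKM, as high as in EAE-induced mice.

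Of 24 fatty acid uptake and oxidation genes tested, 18 were higher and 6 lower in EAE-induced mice, with a median log2 fold change of 0.09 against -0.05 over all genes. That median was 0.05 without unimmunized mouse 3 and -0.01 without the 4 mice of steepest length slope (unimmunized 3 and 4, EAE-induced 1 and 3). Ucp3 was the 1 called gene of that list, which does not hold Cpt1a. In a list of 20 PPAR-responsive fuel genes compiled after the values had been seen, 18 were tested, 7 were higher and 11 lower, a share close to the 59.7% of all genes that were lower, and Ucp3 and Cpt1a were called.

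Fbxo32 (Entrez Gene 67731, chr15:58175879-58214892), the ubiquitin ligase of muscle wasting, was also downregulated. It had 79.4, 57.0, 72.3, 78.3 and 87.3 RPKM in unimmunized mice and 54.6, 47.1, 56.2, 36.1 and 50.9 RPKM in EAE-induced mice. The highest EAE-induced mouse was just below the lowest unimmunized mouse (log2 fold change -0.61, SE 0.14, adjusted p = 0.0312), and OVA-immunized mice averaged 57.2 ± 9.47 RPKM. After exon length correction the log2 fold change was -0.47 with an adjusted p of 0.0921.

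Of the 20 atrophy ubiquitin ligases and FoxO targets, all tested, 16 were lower, where 59.7% of all genes were, and 4 higher, with a median log2 fold change of -0.18. After exon length correction 8 of the 20 were higher and the median was -0.14, and with quantile normalization it was -0.11. Fbxo32 and Sesn1 were lower at an adjusted p below 0.05, as were 2.35% of all genes, and 9 were lower at an unadjusted p below 0.05, where 20.3% of all genes were. Sesn1, a stress-induced inhibitor of mTORC1 signalling, fell from 15.9 ± 0.99 to 13.1 ± 1.16 RPKM (log2 fold change -0.28, adjusted p = 0.0468). Foxo3 itself had 3.01 ± 1.57 against 1.62 ± 0.60 RPKM (adjusted p = 0.0899), with unimmunized mouse 3 at 5.70 RPKM and the other 4 below 3 RPKM, so that it entered the test through that mouse. Trim63 had 144, 132, 118, 158 and 166 RPKM in unimmunized mice and 104, 102, 125, 128 and 131 RPKM in EAE-induced mice, which overlap (log2 fold change -0.28, adjusted p = 0.0979).

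Because the list is named for FoxO, the 250 bases before each RefSeq start were searched on both strands for the FoxO core GTAAACA. Fbxo32 was not searched. Of the 16 list genes with a promoter in the RefSeq table, 1 held it, Trim63, and of all genes tested with a promoter 2.61% did (182 of 6974). The Trim63 promoter is shown as the single match, at chr4:134314870-134315119 on the plus strand of GRCm38.p6, with the match in capitals on the opposite strand's reading (TGTTTAC).
Trim63: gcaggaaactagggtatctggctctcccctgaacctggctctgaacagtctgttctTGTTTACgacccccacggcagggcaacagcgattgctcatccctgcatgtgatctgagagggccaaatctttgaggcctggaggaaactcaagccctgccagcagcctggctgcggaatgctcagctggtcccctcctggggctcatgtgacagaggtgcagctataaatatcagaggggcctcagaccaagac
The match starts 194 bases before the transcription start.

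Downregulation was also seen for Fn1 (Entrez Gene 14268, chr1:71585473-71653280), which encodes fibronectin, a glycoprotein that links cells to the matrix. Unimmunized mice had 75.0, 43.0, 67.9, 44.9 and 81.9 RPKM and EAE-induced mice 39.2, 28.7, 34.5, 30.1 and 30.4 RPKM. The EAE-induced mice were uniform and below every unimmunized mouse, among which mice 2 and 4 were lowest (log2 fold change -0.90, SE 0.18, adjusted p = 0.0236). The OVA-immunized mice averaged 42.5 ± 9.44 RPKM. With exon length correction the log2 fold change of Fn1 was -0.67 (adjusted p = 0.0697).

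Among other matrix genes no call was made. Of 29 collagen fibril and matrix genes tested, 23 were lower and 6 higher, with a median log2 fold change of -0.17 that became -0.04 after exon length correction, with 13 of 29 higher. At an unadjusted p below 0.05, 8 were lower, where 20.3% of all genes were. Besides Fn1, P4ha1, a subunit of the enzyme that hydroxylates collagen prolines, passed the adjusted p, from 23.5 ± 1.74 to 19.4 ± 0.64 RPKM (log2 fold change -0.27, adjusted p = 0.0442). Col5a2, a chain of fibrillar collagen V, had 16.9 ± 3.47 against 12.3 ± 1.01 RPKM (log2 fold change -0.43, adjusted p = 0.0590, and -0.24 after exon length correction), and Col3a1 had 126 ± 23.0 against 98.6 ± 10.9 RPKM (adjusted p = 0.0965). The main chains of collagen I differed less. Col1a1 had 172 ± 56.5 against 189 ± 77.3 RPKM (adjusted p = 0.824), and Col1a2 226 ± 70.0 against 230 ± 82.9 RPKM (adjusted p = 0.989).

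Cep95, a centrosomal protein gene, was called whichever of the 10 mice was left out. Its mean exceeded 3 RPKM only in unimmunized mice, the group through which it entered the test. It had 4.90, 5.85, 4.69, 4.48 and 4.12 RPKM in unimmunized mice and 2.88, 2.76, 3.31, 2.80 and 3.02 RPKM in EAE-induced mice. The groups were well separated (log2 fold change -0.68, SE 0.10, adjusted p = 0.0169), and the length-corrected value was close at -0.62 (adjusted p = 0.0142). OVA-immunized mice had 4.27 ± 0.40 RPKM.

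Of the called genes, Mdm4, an inhibitor of p53, had the largest downward fold. Its values were 6.95, 6.32, 11.2, 4.34 and 5.66 RPKM in unimmunized mice and 2.53, 4.13, 2.24, 4.16 and 4.17 RPKM in EAE-induced mice. The lowest unimmunized mouse was barely above the highest EAE-induced mouse (log2 fold change -0.96, SE 0.23, adjusted p = 0.0443), and the call held in 2 of the 10 fits that left out a mouse. Chac1, which degrades glutathione and is induced by ATF4, had 33.7, 22.3, 27.7, 29.8 and 46.7 RPKM in unimmunized mice and 15.6, 12.5, 22.4, 20.0 and 14.7 RPKM in EAE-induced mice (log2 fold change -0.90, adjusted p = 0.0421). The ranges of Chac1 met, at 22.3 and 22.4 RPKM, and the other 9 of the 10 ATF4 and integrated stress response genes tested were higher, none of them called.

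Amino acid genes among the downregulated were Slc7a2, a transporter of cationic amino acids, and Amt, a subunit of the glycine cleavage system. Slc7a2 fell from 7.44 ± 1.46 to 4.5 ± 0.59 RPKM (log2 fold change -0.70, adjusted p = 0.0196). Amt was low throughout, at 3.48 ± 0.90 RPKM in unimmunized and 1.93 ± 0.28 RPKM in EAE-induced mice (log2 fold change -0.80, adjusted p = 0.0196), and it remained called after exon length correction. Oxidizing enzymes included Aox1, an aldehyde oxidase, which fell from 7.00 ± 1.65 to 4.51 ± 0.51 RPKM (adjusted p = 0.0274), and Cyp4f13, a cytochrome P450 with close paralogs, which fell from 4.56 ± 0.70 to 2.67 ± 0.74 RPKM with overlapping groups (adjusted p = 0.0197).

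Immune genes in the downregulated group were Flt3l, the growth factor for dendritic cells, and Lilr4b, an inhibitory receptor of myeloid cells. Flt3l fell from 7.70 ± 0.77 to 5.10 ± 0.94 RPKM (log2 fold change -0.60, adjusted p = 0.0276), with OVA-immunized mice at 8.14 ± 1.38 RPKM. Lilr4b fell from 6.47 ± 1.00 to 4.00 ± 0.38 RPKM (log2 fold change -0.67, adjusted p = 0.0197), and it has close paralogs among which reads may have been divided. Tfap4, a helix-loop-helix transcription factor, fell from 4.88 ± 0.26 to 2.94 ± 0.74 RPKM (adjusted p = 0.0197), and Avil, an actin-binding protein of the villin family, fell from 4.03 ± 0.58 to 2.15 ± 0.54 RPKM (adjusted p = 0.0274).

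The remaining downregulated genes include several with long transcripts. Synj2, a phosphoinositide phosphatase, fell from 8.93 ± 1.80 to 5.78 ± 0.79 RPKM (adjusted p = 0.0236), Napb, a vesicle fusion factor, from 9.54 ± 1.78 to 5.90 ± 1.43 RPKM (adjusted p = 0.0296), and Fam193b from 8.70 ± 1.1 to 5.42 ± 0.32 RPKM (adjusted p = 0.0175). Xpo6, an exporter of actin from the nucleus, has 16920 bases of exon and fell from 8.84 ± 1.66 to 5.72 ± 0.81 RPKM (adjusted p = 0.0274, and 0.131 after exon length correction). Median exon length was 5917 bases in the 34 downregulated genes and 2860 bases in the 6 upregulated genes, against 4342 bases over all genes tested. Sh2d4a, Adap2, Zbtb11, Cep78, Dop1b, Cyb5r2, Arap3, Slc28a2, Myo5c, Ppfibp2, Zfp715 and Fam13b complete the group, with log2 fold changes from -0.59 to -0.69.

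**Figure D3:**
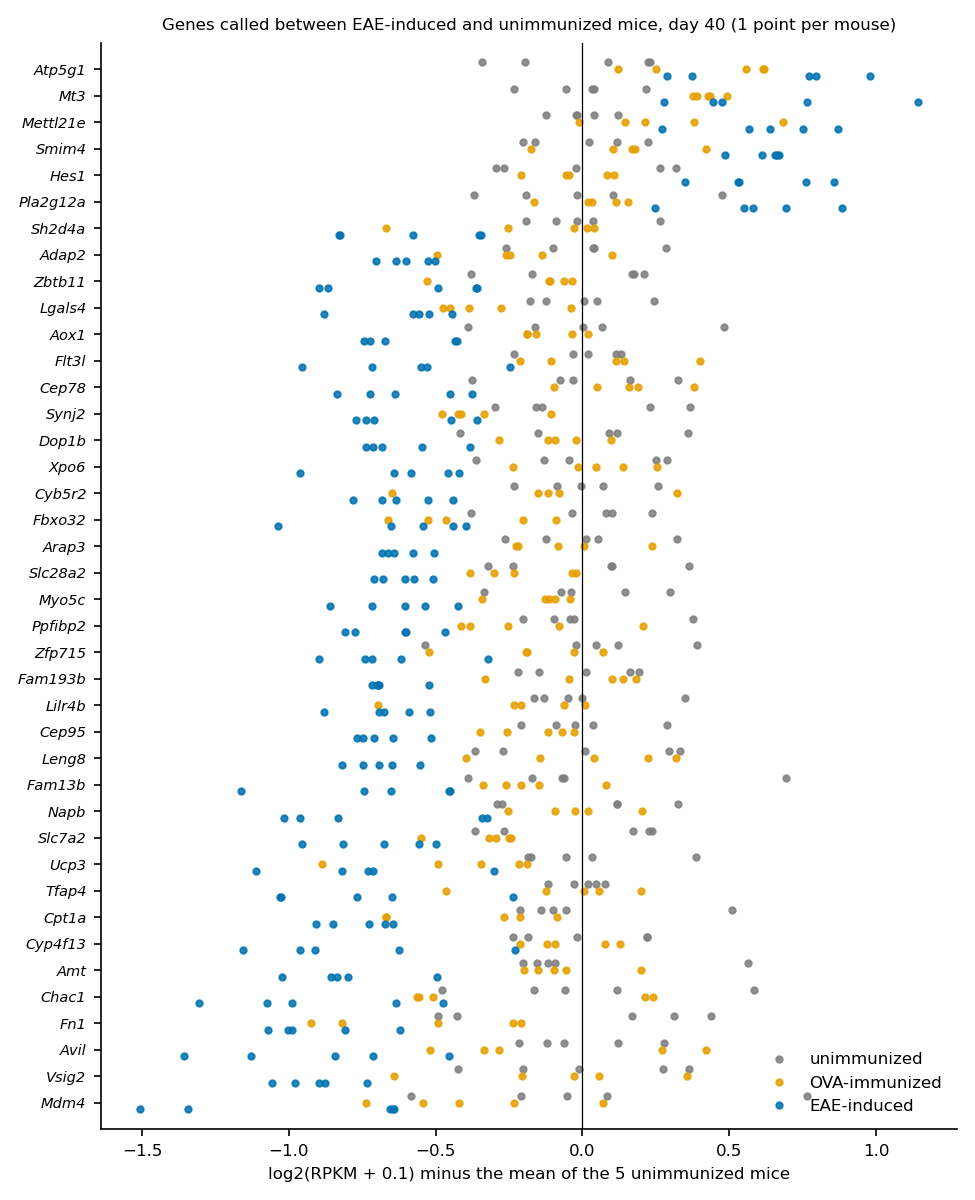
The 40 genes called on day 40, 1 point per mouse, as log2(RPKM + 0.1) minus the mean of the 5 unimmunized mice (unimmunized grey, OVA-immunized orange, EAE-induced blue). The 6 upregulated genes stand at the top and the 34 downregulated genes below in order of fold change. The OVA mean lies between the unimmunized and EAE means in 5 of the 6 and 29 of the 34 genes. The genes were chosen for a large difference between those means, which by itself favours an OVA mean in between. No conclusion is drawn from these counts.

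Lgals4 and Vsig2 are best known from epithelium of the gut rather than from muscle. Lgals4, a galectin of intestinal epithelium, had 5.13, 4.37, 4.54, 5.89 and 4.98 RPKM in unimmunized mice and 3.61, 2.65, 3.34, 3.29 and 3.42 RPKM in EAE-induced mice (log2 fold change -0.60, adjusted p = 0.0197). Vsig2, a surface protein of the stomach and colon, had 2.83, 4.65, 4.95, 3.79 and 3.31 RPKM in unimmunized mice and 1.79, 1.89, 2.04, 2.00 and 2.26 RPKM in EAE-induced mice (log2 fold change -0.91, adjusted p = 0.0197). In both genes the groups did not overlap.

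A list of 20 intestinal epithelial genes compiled after these values had been seen had 9 members above the minimum, with Lgals4 and Vsig2 among them. Of the 9, 8 were lower, where 59.7% of all genes were, and 1 was higher (median log2 fold change -0.53, and -0.31 with quantile normalization). The summed level of all 20 listed genes, tested or not, was 66.5 to 82.8 RPKM in unimmunized, 48.2 to 62.1 RPKM in EAE-induced and 43.5 to 70.5 RPKM in OVA-immunized mice. The defining markers Vil1, Cdh17, Epcam and Muc2 were at means of 1.00, 0.717, 1.2 and 0.632 RPKM in unimmunized mice and 0.831, 0.484, 0.911 and 0.476 RPKM in EAE-induced mice. The 9 genes tested stood apart between the days in every library, with a mean log2 level of 1.71 to 2.48 in the 15 mice of day 40 and of -1.65 to -0.86 in the EAE-induced and unimmunized mice of day 14. In unimmunized mice Lgals4 averaged 4.98 RPKM on day 40 and 0.887 RPKM on day 14, and Vsig2 3.90 and 2.49 RPKM. The part of such RNA in the change of Lgals4 and Vsig2 was not tested. In whole muscle, fewer cells of a type and less RNA per cell cannot be told apart.

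Most genes of RNA splicing and nuclear export had a lower mean in EAE-induced mice, with Leng8 past the fold threshold. This list was also compiled after the values had been seen, so its counts are a description. Of 55 genes, all tested, 52 were lower in EAE-induced mice, as were 59.7% of all genes, and 23 were lower at an adjusted p below 0.05, as were 2.35% of all genes. In this list Leng8 was called (21.8 ± 4.75 against 13.2 ± 0.93 RPKM, adjusted p = 0.0236). Pnisr, a serine- and arginine-rich splicing protein, had 26.9, 29.5, 29.3, 24.6 and 23.3 RPKM in unimmunized mice and 20.0, 18.2, 18.1, 18.8 and 19.3 RPKM in EAE-induced mice. The groups were apart (log2 fold change -0.49, adjusted p = 0.0175), and OVA-immunized mice were at 25.4 ± 2.55 RPKM. Clk1, a kinase that phosphorylates splicing factors, fell from 25.0 ± 2.33 to 17.8 ± 1.26 RPKM (adjusted p = 0.0197), and Rsrp1 fell from 172 ± 19.1 to 121 ± 4.6 RPKM (adjusted p = 0.0197).

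These genes have long exons in the annotation, with a median of 7299 bases. Their median log2 fold change was -0.23. After exon length correction it was -0.07 with 14 of 55 higher, against 0.01 with 51.9% higher over all genes. Rsrp1 passed after the correction (log2 fold change -0.48, adjusted p = 0.0291), while Pnisr was at -0.29 (adjusted p = 0.0878) and Rbm6, an RNA-binding splicing regulator, at -0.06 (adjusted p = 0.775). Hsph1, a heat shock protein of the HSP110 family, fell by 0.50 on the log2 scale, from 28.6 ± 2.49 to 20.2 ± 1.11 RPKM (adjusted p = 0.0196), while 8 of the 22 heat shock and chaperone genes were higher and 14 lower. Ryr1, the calcium release channel of the sarcoplasmic reticulum with 21838 bases of exon, fell from 247 ± 45.9 to 182 ± 17.2 RPKM (adjusted p = 0.0468), and its log2 fold change of -0.42 became -0.11 after the correction.

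Expression differed along the exon length of the genes in general. When the genes were divided into 5 equal classes by exon length, 74.9% of the shortest class were higher in EAE-induced mice, and 12.1% of the longest. Of the genes with an adjusted p below 0.05, 19 were in the shortest class and 100 in the longest. The correction brought the median log2 fold change to between 0.00 and 0.02 in every class, and the share of all genes above 0 from 40.3% to 51.9%.

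All 36 nuclear complex I subunits had a higher mean in EAE-induced mice, with log2 fold changes of 0.02 to 0.38 and a median of 0.26, against -0.05 over all genes. None passed an adjusted p of 0.05, and 27 were higher at an unadjusted p below 0.05, as were 7.62% of all genes. Of 38 nuclear subunits of complexes II to V tested, 37 were higher (median 0.24), and Atp5g1 was called. After exon length correction the medians were 0.18 (35 of 36 higher) and 0.17 (34 of 37 higher), and with quantile normalization they were 0.16 and 0.11.

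The subunits with the smallest p-values show the size of the differences. Ndufb5, an accessory subunit of complex I, had 276, 291, 226, 343 and 246 RPKM in unimmunized mice and 390, 326, 389, 311 and 305 RPKM in EAE-induced mice (log2 fold change 0.32, adjusted p = 0.0773). Unimmunized mouse 4 lay within the EAE-induced range and unimmunized mouse 3 was lowest. Ndufb6, another accessory subunit, had 162 ± 25.3 against 202 ± 23.4 RPKM (adjusted p = 0.0740), and Uqcrq, a subunit of complex III, had 439 ± 79.6 against 569 ± 79.7 RPKM (adjusted p = 0.0688). OVA-immunized mice were at 177 ± 7.63 RPKM for Ndufb6 and 466 ± 24.6 RPKM for Uqcrq.

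EAE-induced mice 1 and 3, with the steepest negative length slopes, had the highest Ndufb5, Ndufb6 and Uqcrq levels of their group, and unimmunized mouse 3, with the steepest positive slope, had the lowest of its own. Without these 3 mice and unimmunized mouse 4, the median log2 fold change was 0.13 for complex I and 0.15 for complexes II to V. The 13 genes encoded in mitochondrial DNA were split, with 9 higher, 4 lower and a median of 0.08. That median was 0.03 without EAE-induced mouse 2 and 0.12 without EAE-induced mouse 3.

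Nuclear respiratory chain genes are known targets of NRF1, so the same promoter windows were searched for its core, GCGCA, any base, then GCGC. It was present in 6 of the 32 complex I genes with a promoter (18.8%: Ndufa11, Ndufa5, Ndufa8, Ndufb4, Ndufs5 and Ndufs6), in 5 of the 28 complex II to V genes, in 3 of the 16 atrophy and FoxO genes, and in 10.3% of all genes tested with a promoter. That of Ndufa11 (chr17:56717512-56717761, plus strand, GRCm38.p6) is shown as an example, with the match 60 bases before the start in capitals.
Ndufa11: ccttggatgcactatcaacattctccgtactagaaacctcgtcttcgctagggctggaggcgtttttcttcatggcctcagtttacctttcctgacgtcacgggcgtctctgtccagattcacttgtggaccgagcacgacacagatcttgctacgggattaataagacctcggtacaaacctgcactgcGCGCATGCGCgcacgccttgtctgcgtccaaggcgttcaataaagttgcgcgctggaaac
Ndufa11, an accessory subunit of complex I, had 36.0 ± 6.25 RPKM in unimmunized and 45.7 ± 7.01 RPKM in EAE-induced mice (adjusted p = 0.0839), which is not a call.

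Other metabolic lists were closer to the whole. Of 17 TCA cycle genes, 14 were higher (median 0.11), and of 25 glycolysis and glycogen genes 17 were (median 0.08), where 40.3% of all genes were higher. None of either list had an adjusted p below 0.05. After exon length correction both medians were 0.14, with 16 of 17 and 19 of 25 genes higher. Under quantile normalization the medians became -0.01 and 0.02. Without unimmunized mouse 5 the TCA median was 0.07 and the glycolysis median 0.03, and without unimmunized mouse 4 the glycolysis median was 0.13. Tpi1, triosephosphate isomerase, had 1171 ± 188 against 1460 ± 99.6 RPKM with no overlap (adjusted p = 0.0662), and Slc16a3, the lactate exporter MCT4, had 87.3 ± 14.1 against 114 ± 9.39 RPKM (adjusted p = 0.0583). Esrra, a nuclear receptor that drives mitochondrial genes, had 48.3 ± 7.21 against 60.7 ± 5.21 RPKM (adjusted p = 0.0576).

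The mitochondrial genes Mrpl16 and Pdhx were among the 25 genes (0.288% of those tested) that were higher at an adjusted p below 0.05. Their folds were below 1.5, and they are given as single genes, not as a list. Mrpl16, a protein of the mitochondrial ribosome, rose from 32.6 ± 2.5 to 40.5 ± 2.04 RPKM (log2 fold change 0.31, adjusted p = 0.0197, and 0.0142 after exon length correction). Pdhx, a component of the pyruvate dehydrogenase complex, rose from 48.9 ± 4.87 to 58.9 ± 3.36 RPKM with no overlap (adjusted p = 0.0463). Among muscle proteins, Mylpf rose to 10720 ± 389 RPKM (log2 fold change 0.25, adjusted p = 0.0472), a value that was 0.10 after exon length correction.

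**Figure D4:**
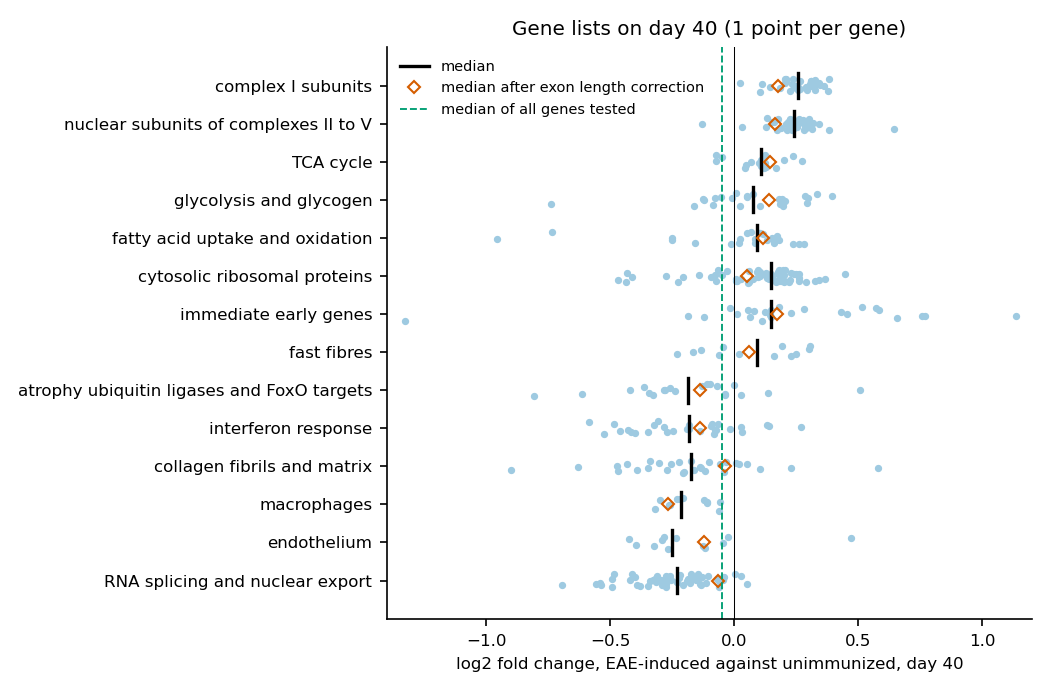
Log2 fold change between EAE-induced and unimmunized mice on day 40 for the genes of 14 lists, 1 point per gene, with the median of each list (black bar) and its median after exon length correction (open diamond). Complex I and complexes II to V lie to the right of the median of all genes tested (dashed line), and the RNA splicing list lies to the left before the correction. After it the median of that list was -0.07, against 0.01 over all genes with the same correction.

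Immediate early genes and denervation genes gave no call. Of 27 immediate early genes tested, 22 were higher, where 40.3% of all genes were, and 8 of these had an unadjusted p below 0.05, where 7.62% of all genes did. Junb had 15.1, 23.9, 14.1, 19.2 and 18.8 RPKM in unimmunized mice and 25.2, 23.1, 39.6, 45.7 and 24.4 RPKM in EAE-induced mice, with EAE-induced mice 3 and 4 far above the rest. Fos had 8.89 ± 4.81 against 19.6 ± 12.4 RPKM (adjusted p = 0.0935), with EAE-induced mouse 4 at 40.4 RPKM. The 21 myogenic and denervation genes tested were split, 13 higher and 8 lower, with a median of 0.03. That median was 0.02 without unimmunized mouse 1 and 0.08 without unimmunized mouse 4. Csrp3, a stretch-sensing protein of the Z-disc, had 92.8, 60.0, 75.0, 136 and 26.4 RPKM in unimmunized mice and 123, 88.7, 118, 209 and 308 RPKM in EAE-induced mice. These ranges overlap (log2 fold change 1.16, SE 0.38, adjusted p = 0.0858). No gene of the NF-kB and TNF list (18 tested) or the glucocorticoid response list (15 tested) had an unadjusted p below 0.05.

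All 12 macrophage markers had a lower mean (median log2 fold change -0.21, and -0.27 after exon length correction), 2 of them with an unadjusted p below 0.05, where 20.3% of all genes were lower. Unimmunized mouse 5 stood above the rest of its group in this list, and without it the median was -0.07. Their summed level was 364 to 636 RPKM in unimmunized and 331 to 433 RPKM in EAE-induced mice. Of 12 endothelial markers 11 were lower (median -0.25). At an unadjusted p below 0.05, 6 were lower, where 20.3% of all genes were, and 1 was higher. After the correction 5 of the 12 were higher (median -0.12). Their summed levels were 199.9 to 261 RPKM in unimmunized and 186 to 231 RPKM in EAE-induced mice. None of these 24 markers passed the adjusted p.

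Among 29 interferon response genes tested, 24 were lower in EAE-induced mice, where 59.7% of all genes were (median -0.18). The median was -0.08 without EAE-induced mouse 5 and -0.28 without EAE-induced mouse 3. The median difference of OVA-immunized from unimmunized mice for the same genes was 0.28, and both comparisons use the same unimmunized mice. Trim25, a ubiquitin ligase that activates the RNA sensor RIG-I, had 5.50 to 5.74 RPKM in unimmunized mice, 3.88 to 4.6 RPKM in EAE-induced mice and 5.42 to 6.62 RPKM in OVA-immunized mice. The EAE-induced mice lay below all others (log2 fold change -0.40, adjusted p = 0.0175, with a fold below 1.5). Of 22 MHC and antigen presentation genes 17 were lower (median -0.08), and of 16 complement genes 13 were lower (median -0.07), with none past the adjusted p. The MHC median was 0.02 without unimmunized mouse 3 and -0.21 without unimmunized mouse 1, and leaving out single mice moved the complement median between -0.16 and -0.01.

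The effect of EAE on day 40 was much smaller than on day 14, during active disease. On day 14, 1282 genes were upregulated (14.6% of 8771 tested) and 1036 downregulated (11.8%) between EAE-induced and unimmunized mice. The SD of the log2 fold changes over the 8449 genes tested on both days was 0.62 on day 14 and 0.20 on day 40. Across these genes the log2 fold changes of both days had a Pearson correlation of -0.20, and of -0.07 when both were corrected for exon length. Genes are not independent replicates, and no p is attached to these values.

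Of the 1145 genes upregulated on day 14 and tested on day 40, 28.1% were above 0 on day 40, as were 40.3% of all genes, and the median log2 fold change went from 0.83 to -0.11, against -0.05 over all genes on day 40. None of them was called higher on day 40 and 4 were called lower, where 0.0690% and 0.391% of all genes were. Of the 989 genes downregulated on day 14, 52.0% were above 0 on day 40 and the median went from -0.89 to 0.01, with 4 called lower and 1 called higher. The difference of the EAE effect between the days, tested in 1 model of all 30 mice, had an adjusted p below 0.05 for 4171 genes (48.0%), of which 1445 were more positive on day 40 (16.6%) and 2726 more negative (31.4%).

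The 4 of these 989 genes that were also downregulated on day 40 are a share close to that of all genes tested (0.391%). Fn1 had a log2 fold change of -1.41 on day 14 and -0.90 on day 40, Flt3l -1.25 and -0.60, Lilr4b -1.10 and -0.67, and Cyp4f13 -0.80 and -0.78. The adjusted p of the difference between days was 0.252, 0.0724, 0.246 and 0.958, so a difference in size was not shown for any of them.

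A further 5 genes were called in opposite directions on the days. Fbxo32 was higher on day 14 (log2 fold change 1.58) and lower on day 40 (-0.61), and the difference had an adjusted p of 5e-05. Aox1 went from 1.14 to -0.60 (adjusted p = 1.65e-05), Synj2 from 1.08 to -0.61 (adjusted p = 3.77e-05) and Zbtb11 from 0.61 to -0.60 (adjusted p = 0.00119). Atp5g1 went from -0.91 to 0.64 (adjusted p = 0.000824). The day 40 mice that chose these genes also enter the test of the difference, which is therefore not independent of the choice.

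Lists described above also differed between the days, where 16.6% of all genes were more positive and 31.4% more negative on day 40. The median of the complex I subunits was -0.77 on day 14 and 0.26 on day 40, with a difference past the adjusted p in 35 of the 36 genes, all positive. The atrophy and FoxO list went from 0.72 to -0.18, with 15 of 20 genes more negative, and the myogenic and denervation list from 1.92 to 0.03, with 15 of 21 more negative. The collagen and matrix list went from -1.23 to -0.17, with 21 of 29 more positive.

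Genes of the largest changes on day 14 were at low levels or not called on day 40. S100a8, a calcium-binding protein of neutrophils, had a log2 fold change of 7.29 on day 14, and on day 40 it had 1.12, 1.72, 1.66, 2.58 and 24.6 RPKM in unimmunized mice and 2.99, 1.22, 5.84, 2.55 and 17.6 RPKM in EAE-induced mice (adjusted p = 0.711). In each group mouse 5 was far above the others. Gdf5, a bone morphogenetic protein of denervated muscle, averaged 14.0 RPKM in EAE-induced mice on day 14 and 0.0775 RPKM on day 40, below the minimum for testing. Krt18, a keratin, averaged 11.3 and then 0.513 RPKM and was likewise not tested on day 40. Col1a1 and Col1a2, with log2 fold changes of -3.77 and -3.23 on day 14, were at 0.10 and 0.01 on day 40, and Cilp2, a cartilage matrix protein, went from -3.12 to 0.31 (adjusted p = 0.492 on day 40).

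**Figure D5:**
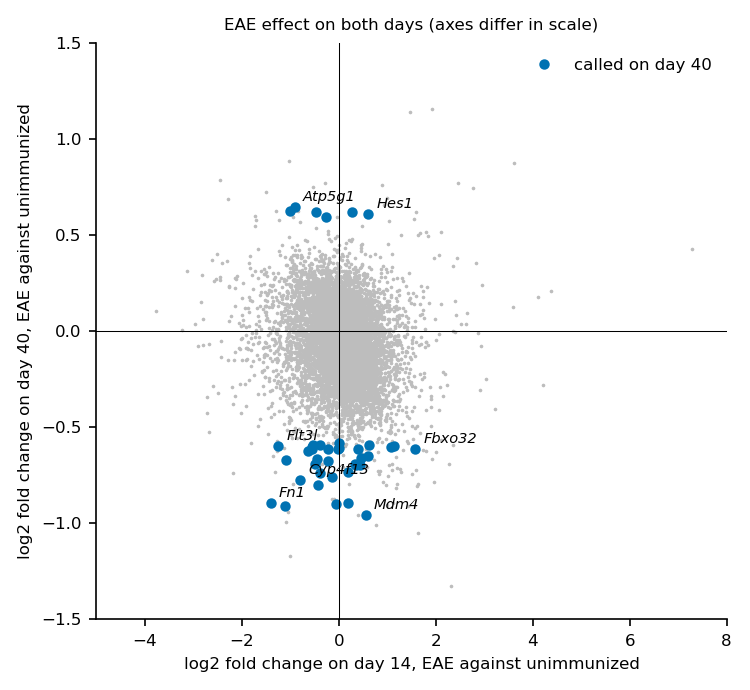
Log2 fold change between EAE-induced and unimmunized mice on day 14 (horizontal) and day 40 (vertical, on a wider scale), 1 grey point for each of the 8691 genes tested on day 40 and blue for the genes called on day 40. The cloud is wider along the day 14 axis (SD 0.62 against 0.20 over the 8449 genes tested on both days). Fn1, Flt3l and Cyp4f13 lie low on both days, and Fbxo32 and Atp5g1 lie on opposite sides of 0.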

How the data were processed

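Poly(A) RNA of EDL muscle from 30 mice was sequenced from strand-specific libraries. Per the labels and the study's methods, the authors aligned reads with Subread to mm10, counted them over RefSeq genes with featureCounts, computed RPKM and tested with edgeR. The read counts were not used here. The deposited table, named RPKM by the authors, holds log2(RPKM + 1) with 0.0001 for genes without a read. Read that way, the sums of RPKM times exon length in kb were 1378000 to 1491000 per library, against 171000 to 201000 if the values were RPKM themselves. Values were turned back into RPKM and the placeholder into 0. Of 21073 Entrez IDs, 20857 matched RefSeq names and 20527 (97.4%) an exon length (GRCm38.p6).

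Genes with a mean above 3 RPKM in EAE-induced or unimmunized mice were tested with limma 3.58.1 in R 4.3.3 (mean-variance trend) on log2(RPKM + 0.1), so fold changes of low genes are understated. The main model held the 15 mice of day 40, and the difference between days was tested in 1 model of 30 mice. Calls required an adjusted p under 0.05 (Benjamini-Hochberg) and a change of more than 1.5-fold, as in the study's methods. The exon length correction subtracted a loess trend (span 0.5) of each library's deviations on exon length, available for 8564 of the tested genes (98.5%). Permutation tests used scipy 1.17.1 and all 252 splits, with a smallest possible p of 0.00794. Scripts were tested on simulated data. Per-mouse depth was inferred from value spacing and is approximate, because exact exon lengths were not given. Single mice differed by 13.7 to 160 times the counting variance, so each mouse counted as 1 replicate. These differences were smallest in OVA-immunized mice (13.7 to 33.75), against 18.9 to 160 in unimmunized and 17.8 to 61.8 in EAE-induced mice. The main model pooled all groups of day 40 into 1 estimate of the spread. Nothing states that the mice of a group came from separate cages or days.

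The genes, lists and tests were chosen with earlier results of these data known, and the lists of RNA splicing, intestinal epithelial and PPAR-responsive genes were compiled after the values had been seen. Genes named are all called genes of a direction with up to 15, otherwise the 15 largest folds without overlap, called list members, the smallest p-values of each list, fillers to 10 in a direction with fewer calls, and the 5 largest changes of day 14 in each direction. The other called genes were named after their values were seen. Alternatives were pseudocounts, expression minimums, scalings, a replicate block, array weights, other sets of mice, no fold threshold and exon length correction. Promoter sequences are RefSeq's on GRCm38.p6. Some genes that this rule names are not reported here.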

Additional observations from a re-analysis of the deposited data

Results flagged for a closer look

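Single mice stood apart within their group of 5 for 3 called genes and 3 marker lists, by the gap to the nearest mouse as a share of the range (Dixon's test, which chance passes in about 1 of 20 groups). With 56 groups scanned for genes and 76 for lists, this number is close to what chance would give. Amt was at 5.09 RPKM in unimmunized mouse 2 and at 2.95 to 3.19 RPKM in the other 4. Cpt1a was at 6.55 RPKM in unimmunized mouse 3 and at 3.92 to 4.39 RPKM in the others. Fam193b was at 5.99 RPKM in EAE-induced mouse 1 and at 5.21 to 5.30 RPKM in the others, all of them below the unimmunized mice. The mean log2 level of the slow fibre markers was 7.47 in EAE-induced mouse 5 and 6.58 to 6.74 in the others. Unimmunized mouse 5 had the highest mean log2 level of the neutrophil markers tested (4.87 against 0.76 to 1.82) and of the macrophage markers (4.75 against 4.24 to 4.35).

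The effect of EAE differed between day 40 and day 14 for 17 of the 40 called genes by the limma interaction test at an adjusted p below 0.05. That is 42.5% of them, against 48.0% of all genes tested, and the day 40 mice that chose these genes also enter the test. The log2 fold change was more positive on day 40 for Mt3 (by 1.62), Atp5g1 (by 1.55), Mettl21e (by 1.08) and Pla2g12a (by 0.86). It was more negative for the atrophy ligase Fbxo32 (-2.20), the aldehyde oxidase Aox1 (-1.74), Synj2 (-1.68), Mdm4 (-1.51), Ppfibp2 (-1.25), Zbtb11 (-1.21), Napb (-1.13) and Zfp715 (-1.11). Smaller negative differences were those of Slc7a2 (-1.06), Cyb5r2 (-1.01), Ucp3 (-0.93), Slc28a2 (-0.59) and Sh2d4a (-0.59). Adjusted p-values ran from 1.65e-05 (Aox1) to 0.0434 (Sh2d4a).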

How the results depend on the processing

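The 6 higher and 34 lower calls kept their direction under each alternative run in which they were tested, and their number did not hold. A pseudocount of 1 gave 0 higher and 15 lower, median-of-ratios scaling 15 lower, quantile normalization 3 lower, a fit of the 10 compared mice alone 1 higher and 5 lower, and no fold threshold 25 and 204. With all 30 mice in 1 limma model there were 0 and 0 calls (1134 genes at an unadjusted p below 0.05, smallest adjusted p 0.240). Exon length correction gave 1 higher and 9 lower, all among the 40. Without the 4 mice of steepest length slope (unimmunized 3 and 4, EAE-induced 1 and 3), an alternative chosen after seeing the data, there were 0 and 0 (1620 genes at an unadjusted p below 0.05, smallest adjusted p 0.0861). Leaving out each mouse in turn gave 0 to 21 higher and 1 to 181 lower calls. Without unimmunized mice 1, 3, 4 and 5 there were 1, 0, 21 and 1 higher and 18, 7, 181 and 20 lower, without EAE-induced mouse 1 there were 3 higher, and without EAE-induced mouse 3 there were 0 higher and 1 lower. Same-numbered mice did not deviate together (correlations of -0.547 to 0.0131). The length trend of each library enters these correlations, so they cannot decide whether the numbers pair the mice. With the replicate number as a block the calls were 0 higher and 1 lower (1947 genes at an unadjusted p below 0.05), and 4346 genes differed between days against 4171. The count of genes that differed between days was 3733 to 5022 over the alternatives. The cause of the shifts with scaling, mice and block was not tested. Median-of-ratios scaling moved the median log2 fold change of all genes from -0.05 to 0.00, and quantile normalization changed the sign of the median of the TCA cycle (to -0.01), calcium handling (to -0.03), fast fibre (to -0.03), slow fibre (to -0.06) and mitochondrially encoded (to -0.06) lists. Of the 34 lower calls, 15 had a mean of at most 3 RPKM in EAE-induced mice, and the part of depth in their calls was not tested.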

Other observations

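Lists not described above gave no called gene on day 40. All 5 Schwann cell and myelin genes tested were higher in EAE-induced mice (median log2 fold change 0.31), and 1 had an unadjusted p below 0.05. The summed level of all 10 listed genes, tested or not, was 98.9 to 185 RPKM in EAE-induced mice. It was 91.0 to 106 RPKM in unimmunized and 93.5 to 156 RPKM in OVA-immunized mice. Of 63 cytosolic ribosomal protein genes tested, 49 were higher (median 0.15), and 39 were higher after exon length correction (median 0.05). Without unimmunized mouse 3 the ribosomal protein median was 0.06. The 40 ribosome biogenesis genes were split evenly, 20 higher and 20 lower. Of 16 circadian clock genes, 11 were lower and 5 higher, and Per3, a period gene of the clock, had 7.43 ± 1.09 RPKM in unimmunized and 4.57 ± 0.81 RPKM in EAE-induced mice with no overlap (limma adjusted p = 0.0649). OVA-immunized mice had 5.41 ± 1.55 RPKM of Per3. Of 8 adipocyte genes tested 6 were higher (median 0.15, which was -0.01 without unimmunized mouse 1 and 0.36 without EAE-induced mouse 2), of 9 smooth muscle and pericyte genes 4 were higher (median -0.14, but 0.05 after exon length correction and 0.00 with quantile normalization), of 11 fibroblast genes 5 were higher, and of 8 tendon genes 3 were higher (median -0.10, which was 0.01 without EAE-induced mouse 4 and -0.18 without unimmunized mouse 5). The 5 satellite cell genes tested had a median of 0.10 (0.03 without EAE-induced mouse 2), and the 5 erythrocyte genes one of 0.35. Leaving out unimmunized mouse 5 brought the erythrocyte median to -0.01, leaving out unimmunized mouse 1 brought it to 0.70, and without the 4 mice of steepest length slope it was -0.17. The 2 neutrophil genes tested, S100a8 and S100a9, were spread widely in both groups. The summed level of all 14 listed neutrophil markers, tested or not, was 6.24 to 75.3 RPKM in unimmunized and 9.08 to 56.3 RPKM in EAE-induced mice. The 20 calcium handling genes were split into 12 higher and 8 lower (median 0.06, which was 0.02 without unimmunized mouse 3). The 12 fast fibre genes were split into 7 higher and 5 lower, and the 10 slow fibre genes into 7 and 3. The 2 cell cycle genes tested, Aurka and Pcna, were both lower without passing the test.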
